A study of Mus musculus with 12 samples.

Results

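Genes of the voltage-gated sodium and calcium channels and of the pacemaker channels were followed in mouse hearts. The members were taken from the probe sets annotated to 1 gene whose symbol starts with Cacn, or with Scn or Hcn and a digit, and the probe set brightest on average over the 12 arrays stood for its gene. This gave 37 genes of 18193 on the array, read by 87 probe sets: 24 calcium channel genes, 11 sodium channel genes and 2 pacemaker channel genes. Of these, 13 lay in the upper 60% of genes by mean intensity and were tested (10 Cacn, 2 Scn and 1 Hcn), and 24 lay below that level.

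Hearts came from wild-type mice and from mice lacking the apelin gene Apln, and each genotype had either a sham operation or aortic banding, which narrows the aorta and raises the pressure the left ventricle works against. Each of the 4 groups so formed had 3 arrays, labelled as biological replicates. The sources used here give the tissue as heart, and do not give the strain, the age, the time after banding, the part of the heart taken or how the knockout was made. Values are linear intensities of total RNA on an Affymetrix array, and values of an array triplet are given in the order of replicates 1 to 3.

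A voltage-gated calcium channel is built on a pore subunit, and the L-type pore encoded by Cacna1c carries the calcium current that triggers contraction in cardiomyocytes. A cytoplasmic beta subunit, in the heart mainly that of Cacnb2, and an extracellular alpha2-delta subunit such as that of Cacna2d1 help to bring the pore to the membrane and set its gating. Sodium channels start the action potential, T-type calcium channels and hyperpolarization-activated Hcn channels are known for pacemaker tissue, and several relatives in these families work mainly in nerve, brain or skeletal muscle.

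Promoter sequences are shown for Cacnb2 and Cacna2d1. These were the only tested members whose arrays did not overlap between banded and sham knockout hearts (2 of 13, 15.4%). Over all genes tested the share without overlap was larger (26.6%), so it does not set these 2 apart. The sequences are the 250 bases before the start sites in RefSeq (build GRCm38.p6), printed 5′ to 3′ on the plus strand, on which both genes lie. Capitals mark matches to the GC box GGGCGG, all of which read as CCGCCC here because they lie on the other strand. The first Cacnb2 start site follows chr2:14604056-14604305, the second follows chr2:14823842-14824091, and the Cacna2d1 start site follows chr5:15934441-15934690.
Cacnb2 start site 1: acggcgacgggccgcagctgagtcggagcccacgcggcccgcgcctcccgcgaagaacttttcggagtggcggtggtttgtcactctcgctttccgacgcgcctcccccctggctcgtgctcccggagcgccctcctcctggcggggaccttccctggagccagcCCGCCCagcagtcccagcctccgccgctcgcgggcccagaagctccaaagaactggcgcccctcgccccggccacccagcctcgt
Cacnb2 start site 2: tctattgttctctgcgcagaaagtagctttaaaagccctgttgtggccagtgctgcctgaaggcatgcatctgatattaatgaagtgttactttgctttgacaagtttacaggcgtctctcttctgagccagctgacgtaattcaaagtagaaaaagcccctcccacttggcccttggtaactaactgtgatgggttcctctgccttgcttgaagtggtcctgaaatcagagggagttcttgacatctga
Cacna2d1: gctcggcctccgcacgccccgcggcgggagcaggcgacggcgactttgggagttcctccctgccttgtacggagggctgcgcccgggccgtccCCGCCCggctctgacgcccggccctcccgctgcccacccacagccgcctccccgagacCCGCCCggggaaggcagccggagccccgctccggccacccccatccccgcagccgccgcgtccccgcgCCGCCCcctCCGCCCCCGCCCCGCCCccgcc

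The 3 sequences differ in composition. The first Cacnb2 sequence is 73.2% G and C and holds 1 match, 85 bases before the start, whereas the second is 46% G and C and holds none. The Cacna2d1 sequence is 82.4% G and C and holds 6 matches, at 157, 99, 31, 22, 16 and 11 bases before the start, of which the last 3 touch or overlap. RefSeq gave 38 promoter windows for 28 of the 37 genes, from 250 bases before to 50 after each start, and 11 of the 13 tested genes were among them. The GC box, read on both strands, was found in 15 of the 38 windows (39.5%) and in 35.7% of 32851 windows of the same length over all genes. The TATA box core TATAAA was found in 2 of the 38 (5.26%, against 13.6% of all windows) and the E-box CACGTG in 0 (7.15% of all windows). These matches describe letters and no binding was measured.

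Many members lie side by side in the genome. In RefSeq's gene order, 15 of the 37 genes have another member as the next protein-coding gene. These are Scn3a with Scn2a and Scn1a with Scn9a and Scn7a on chromosome 2, Cacng7 with Cacng8 and Cacng6 on chromosome 7, Scn2b with Scn4b and Scn10a with Scn11a on chromosome 9, and Cacng1 with Cacng4 and Cacng5 on chromosome 11. In each of these groups at most 1 gene (Scn7a, Cacng7 or Scn4b) lay above the intensity level for testing.

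The array labelled knockout banded 1 stands apart on the deleted gene. In sham hearts Apln read 290 ± 67.0 for wild type and 86.7 ± 23.8 for knockout, and in banded hearts 227 ± 25.3 and 184 ± 77.0 (SD, n = 3). The array in question, at 271, lay within the wild-type range of 205 to 333. Over 6 against 6 arrays Apln differed by -0.96 log2 (exact permutation p = 0.0130), and by -1.17 without that array (exact p = 0.00216). Whether the Apln probe set lies in the deleted part is not known. The same array was high for the airway transcripts Scgb1a1 (1094, at most 49.8 in the other 11 arrays) and Scgb3a2 (410, at most 51.8). The lung markers Sftpc, Sftpb, Sftpa1 and Ager, at 49.2, 54.3, 30.4 and 25.4, lay within the range of the other arrays. The main banding differences in knockout hearts are also given without that array. The load markers Nppb, Myh7 and Acta1 were at 4999 to 8390, 9091 to 9324 and 8138 to 8976 in the knockout banded arrays. In the wild-type banded arrays Myh7 ran from 1918 to 10045. Acta1 ran from 4748 to 7932 there, above the 1974 to 3538 of the wild-type sham arrays. In knockout sham arrays the 3 markers were at 1298 to 4240, 1128 to 1656 and 1468 to 4903, each below every knockout banded array. Wild-type sham 1 stood apart, with Nppb at 6874, above all 3 wild-type banded arrays (at most 6660), and Myh7 at 5182, above wild-type banded 3 (1918). The 8 cardiomyocyte markers were present in every array, with summed intensities of 65242 to 123904. The mean of 10 atrial markers, on the log2(intensity + 16) scale, ran from 6.72 in knockout sham 1 and 6.79 in wild-type banded 3 to 10.9 in wild-type banded 1.

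Among the channel genes, banding lowered Cacnb2, the beta subunit of the cardiac L-type calcium channel, in knockout hearts. Cacnb2 read 764, 833 and 831 in wild-type sham arrays, 868, 818 and 862 in wild-type banded, 1049, 939 and 1007 in knockout sham and 728, 746 and 685 in knockout banded arrays. The 3 knockout sham arrays were higher than all 9 others, and the 3 knockout banded arrays were lower than all 9 others. The level went from 998 ± 55.8 in knockout sham to 720 ± 31.5 in knockout banded hearts (SD, n = 3), and the log2 difference was -0.46 (SE 0.08, 95% interval -0.64 to -0.28, limma adjusted p = 0.0196). In wild-type hearts the values were 809 ± 39.1 and 849 ± 27.4, a difference of 0.07 (interval -0.11 to 0.25, adjusted p = 0.983). That difference was 0.03 without wild-type sham 1 and 0.06 without wild-type banded 3 (adjusted p = 0.983 and 0.994). Cacnb2 was thus 1 of 13 tested members past the threshold in knockout hearts (7.69%), where 412 of 10916 genes passed (3.77% of all genes tested, 1.73% for those lower), so the count is a single gene and near the background.

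The genotype comparisons of Cacnb2 pointed in opposite directions in sham and banded hearts, and neither passed. In sham hearts the difference between knockout and wild type was 0.30 (SE 0.08, adjusted p = 0.931), and in banded hearts it was -0.23 (SE 0.08, adjusted p = 0.230). The arrays of the groups did not overlap in either, as in 10.9% and 19.1% of all genes. The interaction, which is the banding effect in knockout minus that in wild type, was -0.53 (SE 0.12, interval -0.79 to -0.28). It ranked 15 of 10916 genes by p and did not pass after adjustment (limma adjusted p = 0.401), so a different response of the genotypes is not shown for this gene. The comparisons share arrays: the knockout sham arrays enter both the fall with banding and the sham genotype difference.

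A second Cacnb2 probe set, 1452476_at, was read for comparison. It read 334, 385 and 389 in wild-type sham, 452, 403 and 440 in wild-type banded, 419, 475 and 432 in knockout sham and 323, 328 and 326 in knockout banded arrays. The knockout banded arrays were again the lowest 3 of 12, while knockout sham overlapped wild-type banded. With every single-gene probe set fitted and no filter, its banding difference in knockout was -0.42 (SE 0.09, limma adjusted p = 0.0575), and that of the probe set used above was -0.46 (adjusted p = 0.0345). In wild type it was 0.22 (adjusted p = 0.870).

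**Figure D1:**
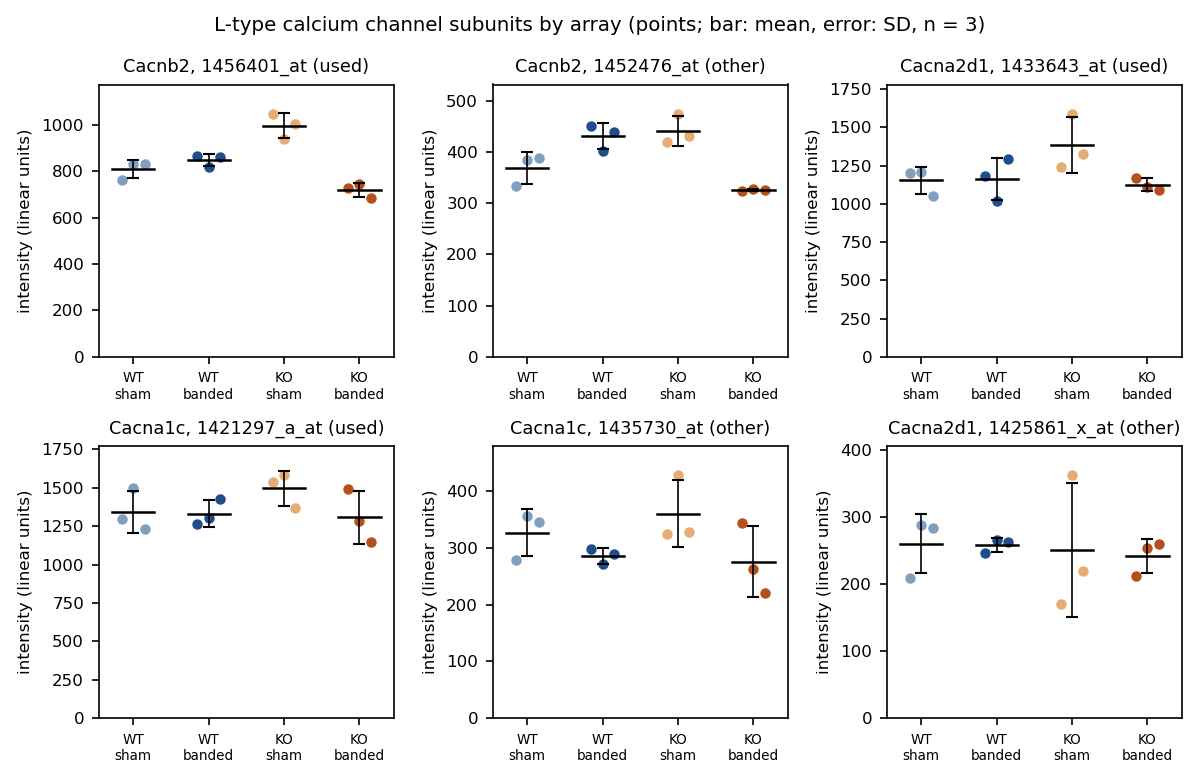
Intensity (linear units, vertical axis) of 6 probe sets of L-type calcium channel subunits in the 4 groups. Points are arrays, bars are means and error bars the SD of 3 arrays. For Cacnb2 (1456401_at) the knockout sham arrays lie at 939 to 1049 and the knockout banded arrays at 685 to 746, with the wild-type arrays between them, and the panels of Cacna1c and Cacna2d1 overlap more.

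The Cacnb2 difference stayed below 0 in all 26 alternative settings, from -0.51 to -0.43, and passed in 20 of them. Without the array labelled knockout banded 1 it was -0.47 (adjusted p = 0.00658), with 1434 genes passing in all. The call was lost without knockout sham 1 (adjusted p = 0.0635), 2 (0.0514) or 3 (0.0805), without knockout banded 2 (0.0695) or 3 (0.0958), and when only both knockout groups were fitted (0.0669). In those 6 settings the number of genes passing over the whole array fell to between 5 and 87. With the atrial marker mean as a covariate the difference was -0.46 (adjusted p = 0.0246).

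**Figure D2:**
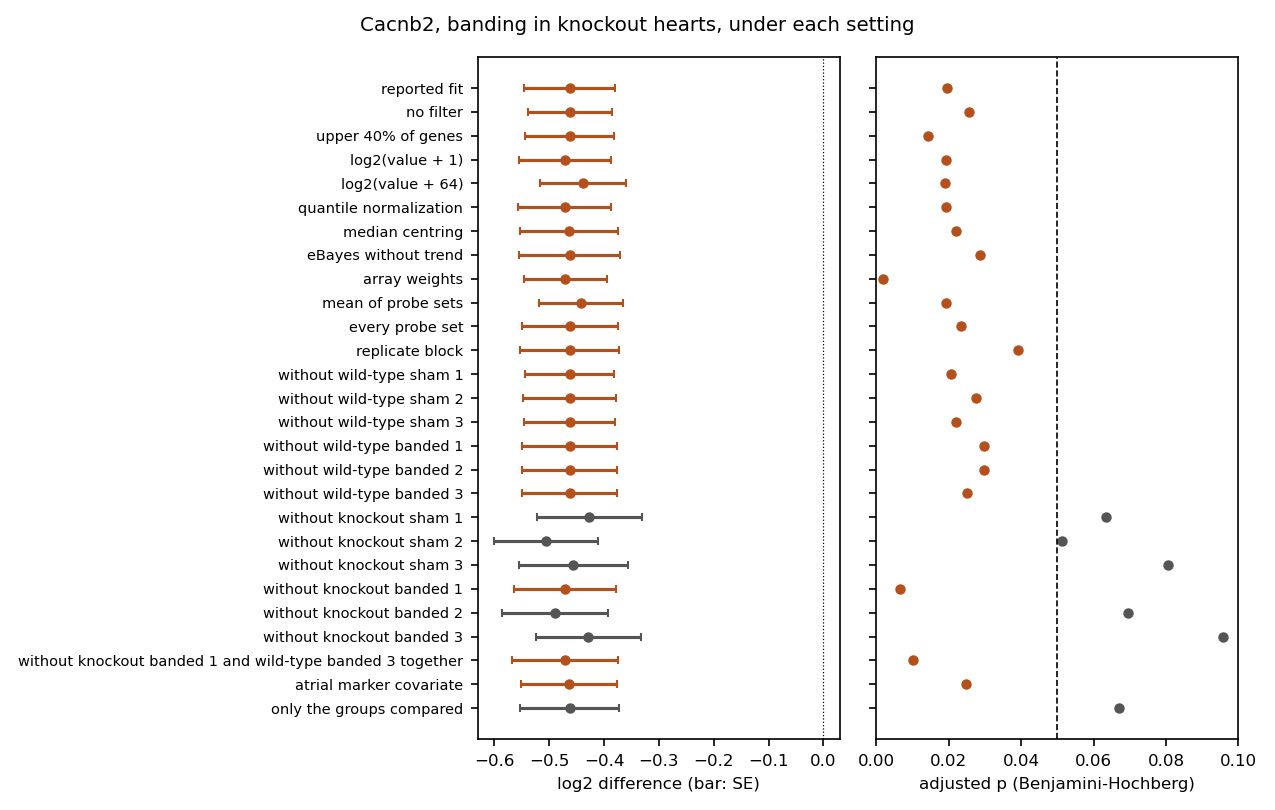
Log2 difference of Cacnb2 between banded and sham knockout hearts (left, bar is the SE) and its limma adjusted p (right, dashed line at 0.05) in the reported fit and 26 alternatives. All differences lie between -0.51 and -0.43, and the 6 grey points, at adjusted p of 0.0514 to 0.0958, are those past the dashed line.

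Cardiomyocyte markers and an RNA measure from Actb, though not that from Gapdh, separated in the same comparison. The summed intensity of the 8 cardiomyocyte markers was 79573 to 89520 in knockout sham and 68668 to 70399 in knockout banded arrays. These do not overlap. Differences were below 0 in 8 of 8 (median -0.27, against -0.02 over all genes), and 0 of 8 passed (3.77% of all genes). The Actb control probe sets, 3′ over 5′ as a log2 ratio, gave -0.01 to 0.30 in knockout sham and -0.22 to -0.17 in knockout banded arrays. They gave -0.09 to 0.18 in wild-type sham and 0.08 to 0.28 in wild-type banded arrays. The knockout banded arrays thus lay below all others. The same ratio for Gapdh overlapped, at -0.37 to -0.33 in knockout sham and -0.35 to -0.32 in knockout banded arrays. The part of these markers and ratios in the Cacnb2 results, including the genotype differences and the interaction, was not tested.

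Other cell types of the heart were read in the same arrays by their markers. For banding in knockout 3.77% of all genes passed, and 26.6% of single genes had arrays that did not overlap. The 7 endothelial markers summed to 3171 to 3490 in knockout sham and 3653 to 3946 in knockout banded arrays, without overlap, and 7 of 7 had differences above 0 (median 0.18, 0 of 7 passed). The 10 smooth muscle and pericyte markers summed to 10134 to 12074 and 7670 to 9807, also without overlap. Of the 9 tested, however, 4 had differences above 0 and 5 below (median -0.06), so they disagree in direction. Among them 1 passed, Abcc9 at -0.69 (adjusted p = 0.0355). Pdgfrb, 1 of those above 0, read 346, 346 and 391 in knockout sham and 465, 426 and 404 in knockout banded arrays. The 8 fibroblast markers summed to 13580 to 16030 and 13500 to 17339, which overlap, and 1 of 8 passed, the collagen gene Col1a1 at 1.18 (adjusted p = 0.0295). The part of these markers in the channel results was not tested. In whole heart RNA, fewer cells of a type and less RNA per cell cannot be told apart.

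The pore subunits of the L-type channel did not pass in any of the 7 contrasts. Cacna1c, the cardiac L-type pore, read 1295, 1495 and 1232 in wild-type sham, 1262, 1302 and 1428 in wild-type banded, 1534, 1581 and 1368 in knockout sham and 1491, 1283 and 1149 in knockout banded arrays. All 4 groups overlapped. Its banding difference was -0.20 in knockout (SE 0.11, interval -0.44 to 0.05, adjusted p = 0.353) and -0.01 in wild type (interval -0.26 to 0.24). Its other probe set gave -0.38 in knockout (adjusted p = 0.303 over all single-gene probe sets) and -0.17 in wild type. Without the array labelled knockout banded 1 the difference of the probe set used was -0.29 (adjusted p = 0.117). Over all fits without a single array it ran from that value to -0.11 (adjusted p = 0.725), the latter without knockout banded 3.

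The other tested L-type pores did not pass either. Cacna1d, the pore known for the sinoatrial node and atria, ran from 36.7 to 63.1 over all 12 arrays, with banding differences of 0.14 in wild type and -0.12 in knockout (adjusted p = 0.983 and 0.772). Cacna1s, the skeletal muscle L-type pore, read 57.9, 98.8 and 59.5 in wild-type sham and 36.6, 55.6 and 67.9 in wild-type banded arrays. These overlap, and its difference of -0.34 (SE 0.24, adjusted p = 0.965) had the smallest p of any member for banding in wild type. In knockout its difference was 0.04. The 9 skeletal muscle markers summed to 159 to 439 per array, and 1 of them was bright enough to be tested. Cacna1f, the retinal L-type pore, averaged 43.1 and was not tested.

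Cacna2d1, the alpha2-delta subunit found with the cardiac L-type channel, had the second smallest p for banding in knockout. It read 1198, 1210 and 1052 in wild-type sham, 1181, 1020 and 1293 in wild-type banded, 1237, 1589 and 1324 in knockout sham and 1171, 1112 and 1093 in knockout banded arrays. The knockout sham arrays lay above both knockout banded and wild-type sham arrays without overlap. Its banding difference was -0.29 in knockout (SE 0.12, adjusted p = 0.180; -0.32 and 0.140 without the array labelled knockout banded 1) and 0.01 in wild type. The sham genotype difference was 0.25 (SE 0.12, adjusted p = 0.931) and the interaction was -0.30 (SE 0.16, adjusted p = 0.597). Its 5 probe sets disagreed for banding in knockout, from -0.31 to 0.46, and their mean gave -0.05 (adjusted p = 0.863).

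Cacna2d2, another alpha2-delta subunit, had the largest SE of the 13. It read 26.8, 55.8 and 33.8 in wild-type sham, 130, 70.0 and 25.8 in wild-type banded, 39.8, 136 and 255 in knockout sham and 81.6, 54.4 and 8.39 in knockout banded arrays. The groups overlapped because single arrays, such as knockout sham 1 and wild-type banded 3, were far from the others of their group. The banding difference was -1.26 in knockout (SE 0.61, interval -2.59 to 0.07, adjusted p = 0.260; -1.67 and 0.119 without the array labelled knockout banded 1) and 0.59 in wild type (interval -0.73 to 1.92). The knockout value was -1.88 without knockout sham 1 (adjusted p = 0.139), -0.74 without knockout sham 3 (adjusted p = 0.581) and -0.67 without knockout banded 3 (adjusted p = 0.640). The sham genotype difference was 1.30 (SE 0.61, adjusted p = 0.931) and the interaction was -1.85 (SE 0.87, adjusted p = 0.545). The other 2 Cacna2d2 probe sets averaged 4.19 and 16.6, under the level for testing.

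Cacnb1, the beta subunit of skeletal muscle channels, ran from 34.9 to 157 within wild-type sham alone. Its banding differences were 0.20 in wild type (interval -0.57 to 0.98) and 0.08 in knockout (interval -0.70 to 0.85), with adjusted p of 0.990 and 0.933. The 2 tested beta subunits therefore had values of different precision: the interval for Cacnb2 in knockout spans a narrower range than that for Cacnb1.

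Across the 12 arrays, Cacnb2, Cacna2d1 and Cacna1c were compared in pairs. Cacna2d1 and Cacna1c correlated with r = 0.70 (permutation p = 0.00859, adjusted 0.0258 over 3 pairs) and rho = 0.70 (permutation p = 0.0145, adjusted 0.0217), with r = 0.64 without the 2 arrays farthest from the median and 0.52 for deviations from the group means. Cacnb2 correlated with Cacna2d1 at r = 0.56 (permutation p = 0.0549, adjusted 0.0654) and rho = 0.71 (permutation p = 0.0121, adjusted 0.0217), so the 2 measures fall on different sides of the threshold. Without the 2 farthest arrays r was 0.60, but for deviations from the group means r was -0.26. Cacnb2 and Cacna1c gave r = 0.55 (permutation p = 0.0654, adjusted 0.0654) and rho = 0.53 (permutation p = 0.0779, adjusted 0.0779), with r = 0.22 without the 2 farthest arrays and 0.22 for the deviations. The relations of Cacnb2 therefore did not hold within groups, and the 12 values share 4 groups.

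T-type calcium channel pores, which open near the resting potential and are known for pacemaker tissue and the developing heart, varied widely between arrays of a group. Cacna1g read 44.3, 84.0 and 54.0 in wild-type sham, 77.6, 7.83 and 83.3 in wild-type banded, 43.6, 113 and 116 in knockout sham and 69.7, 93.7 and 38.5 in knockout banded arrays. Cacna1h read 61.1, 78.3 and 55.5, then 76.5, 88.6 and 50.7, then 14.0, 80.7 and 127, and then 116, 18.2 and 32.6 in the same order of groups. In both genes all groups overlapped, and the lowest array was under the mean level for testing. Banding differences in knockout were -0.33 for Cacna1g (interval -1.41 to 0.75) and -0.31 for Cacna1h (interval -1.47 to 0.85), and those in wild type were -0.31 (interval -1.39 to 0.77) and 0.10 (interval -1.06 to 1.26). A 2-fold fall, -1 on the log2 scale, lies within all 4 intervals. Without the array labelled knockout banded 1, Cacna1h was at -0.87 in knockout (adjusted p = 0.283) and Cacna1g at -0.38 (adjusted p = 0.724). Over the other single knockout arrays left out, Cacna1h ran from -0.96 without knockout sham 1 (adjusted p = 0.303) to 0.16 without knockout sham 3 (adjusted p = 0.911), and it was 0.10 without knockout banded 2. Cacna1g ran from -0.71 without knockout sham 1 (adjusted p = 0.527) to -0.05 without knockout banded 3 (adjusted p = 0.977). The direction for Cacna1h thus rests on single arrays.

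Of the 8 gamma subunit genes, 1 was tested. Cacng7, an auxiliary subunit of AMPA-type glutamate receptors in the brain that is named for its sequence relation to the calcium channel gamma subunit, read 135, 158 and 93.1 in wild-type sham, 108, 68.2 and 131 in wild-type banded, 168, 163 and 110 in knockout sham and 236, 200 and 129 in knockout banded arrays. Knockout banded 3 lay within the wild-type banded range and the other 2 knockout banded arrays were the brightest of 12. The genotype difference was 0.79 in banded hearts (SE 0.26, interval 0.23 to 1.35, adjusted p = 0.215), the smallest p of any member there, and 0.48 averaged over surgery (SE 0.18, adjusted p = 0.417). Without the array labelled knockout banded 1 the former was 0.62 (adjusted p = 0.217). Its other probe set had a mean intensity of 18.8, under the level for testing.

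Of the sodium channel genes, Scn7a and Scn4b were bright enough to be tested. Scn7a encodes an atypical channel that senses sodium and is not opened by voltage in the usual way. It read 374, 578 and 262 in wild-type sham, 348, 424 and 462 in wild-type banded, 218, 329 and 330 in knockout sham and 362, 275 and 284 in knockout banded arrays. The genotypes overlapped, and the difference averaged over surgery was -0.40 (SE 0.17, interval -0.77 to -0.04, adjusted p = 0.435), or -0.46 without the array labelled knockout banded 1 (adjusted p = 0.223). Its other 2 probe sets, at mean intensities of 271 and 80.8, gave -0.04 and -0.14 (adjusted p = 0.949 and 0.795 over all single-gene probe sets), and the mean of the 3 gave -0.20 (adjusted p = 0.580). Its banding differences were 0.08 in both genotypes, with intervals of -0.44 to 0.60 in each. Scn7a is also known in glia. Of the nerve and glia markers, 0 of 6 tested passed for genotype averaged over surgery (median -0.08). As 0% of all genes passed in that contrast, the count cannot decide on a part of glia, which was not tested.

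Scn4b, a beta subunit that binds the sodium channel pore, read 240, 188 and 150 in wild-type sham, 276, 214 and 86.8 in wild-type banded, 513, 186 and 163 in knockout sham and 351, 162 and 196 in knockout banded arrays. Knockout sham 1 and knockout banded 1 were the highest 2 of the 12, and the other arrays of their groups lay within the wild-type range. The genotype difference averaged over surgery was 0.36 (SE 0.31, interval -0.32 to 1.03, adjusted p = 0.697), and banding gave -0.11 in wild type and -0.15 in knockout. In knockout hearts without the array labelled knockout banded 1 it was -0.46 (adjusted p = 0.573). It was 0.34 without knockout sham 1 (adjusted p = 0.714) and 0.06 without knockout banded 2 (adjusted p = 0.978), so its direction rests on single arrays.

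Hcn2, a pacemaker channel that also occurs in working myocardium, read 70.7, 109 and 118 in wild-type sham, 64.2, 87.8 and 105 in wild-type banded, 107, 88.5 and 79.3 in knockout sham and 90.5, 52.8 and 71.1 in knockout banded arrays. The groups overlapped. The banding difference averaged over genotypes was -0.24 (SE 0.15, interval -0.57 to 0.09, adjusted p = 0.430), and it was -0.17 in wild type and -0.31 in knockout hearts. Without the array labelled knockout banded 1 the latter was -0.47 (adjusted p = 0.214), without knockout sham 1 it was -0.21 (adjusted p = 0.704) and without knockout banded 2 it was -0.15 (adjusted p = 0.834). Hcn3 averaged 4.66 and was not tested.

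**Figure D3:**
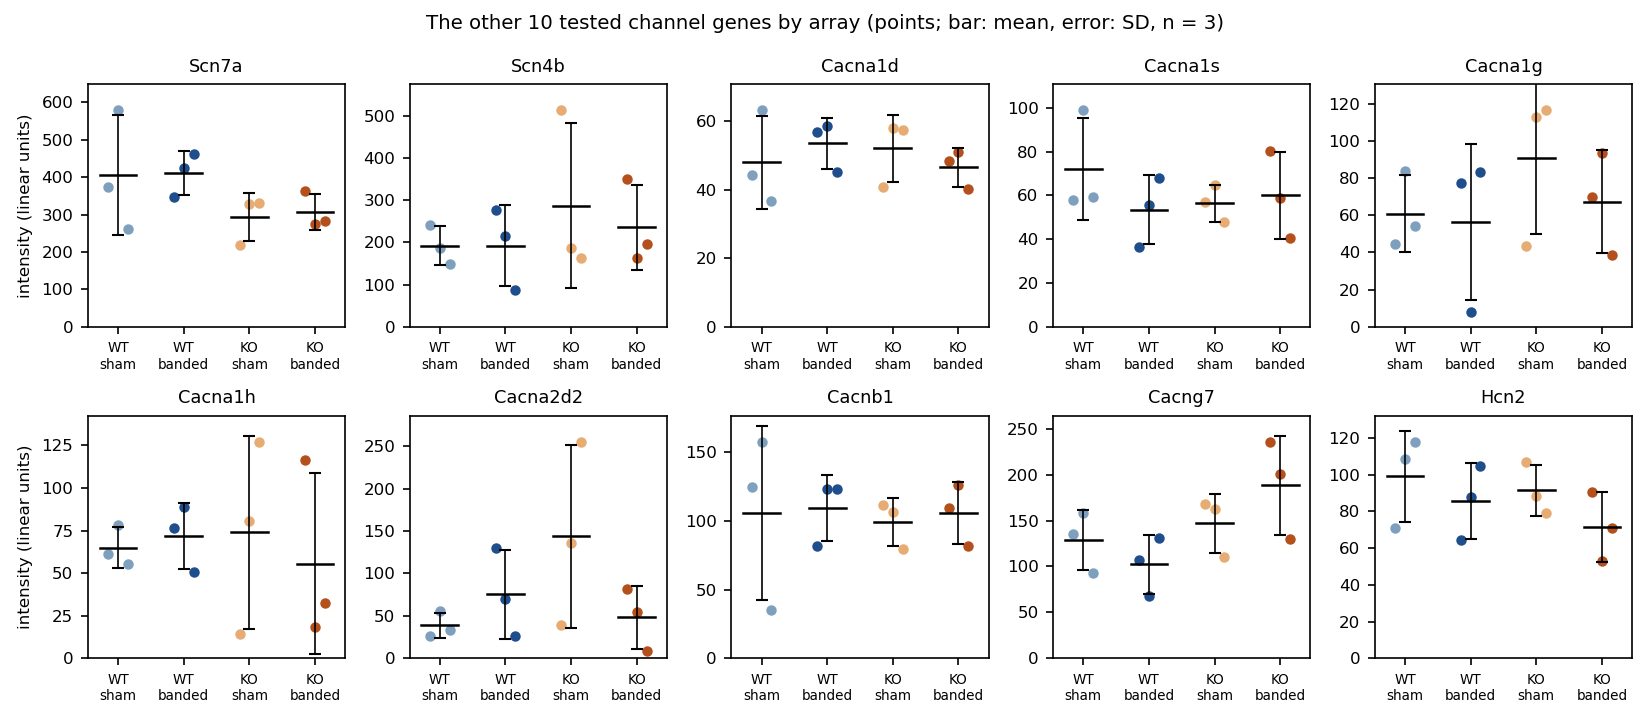
Intensity (linear units, vertical axis) of the other 10 tested channel genes in the 4 groups, with arrays as points, means as bars and the SD of 3 arrays as error bars. In no panel do the banded and sham arrays of a genotype separate, as in Cacna1h, where the knockout sham arrays alone run from 14.0 to 127.

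The 24 members below the level for testing were Cacna1a, Cacna1b, Cacna1e, Cacna1f, Cacna2d3, Cacna2d4, Cacnb4, Cacng1 to Cacng6, Cacng8, Hcn3, Scn2b, Scn3b, Scn10a, Scn11a, Scn1a, Scn2a, Scn3a, Scn8a and Scn9a. Many of them are mainly known from neurons, retina or skeletal muscle, and some, such as the beta subunits Scn2b and Scn3b, also occur in the heart. Their means were 4.66 to 44.1, against a level of 48.5 for testing, and 16 of 24 stayed under that level in every array. The highest single value was 104 for Cacng2 in knockout sham 1. When all genes were fitted without the filter, 0 of the 24 passed in any contrast in limma (smallest adjusted p = 0.292, for Scn2b in banded against sham knockout hearts), and 6 of 168 tests had an unadjusted p under 0.05. Over every gene and contrast of that fit 0.229% passed and 9.55% had an unadjusted p under 0.05. Just inside the level lay Cacna1d at 50.0 and just outside it lay Scn2b at 44.1.

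Over the 13 tested members, the counts by contrast were small. For banding in wild type 0 passed, as did 0% of all 10916 genes, and 0 of 13 had an unadjusted p under 0.05 in limma (4.92% of all genes). For banding in knockout, where Cacnb2 passed, 2 of 13 had an unadjusted p under 0.05 (21.2% of all genes). For banding averaged over genotypes 0 passed (1.58% of all genes) and 1 of 13 had an unadjusted p under 0.05 (18.2% of all genes). For knockout against wild type 0 passed in sham, in banded and averaged over surgery (0% of all genes in each), and 2 of 13 had an unadjusted p under 0.05 in each of the 3 (5.17%, 14.7% and 10.6% of all genes). For the interaction 0 passed (0% of all genes) and 1 of 13 had an unadjusted p under 0.05 (9.08% of all genes).

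Non-overlap and medians of the members can be set beside the same over all genes. For banding in knockout, 2 of 13 members had arrays that did not overlap (15.4%, against 26.6% of all genes), the median difference was -0.20 (all genes -0.02), and 9 of 13 were below 0. In sham hearts 2 of 13 did not overlap between genotypes (15.4%, against 10.9%) and the median was 0.16 (all genes 0.00). In banded hearts 1 of 13 did not overlap (7.69%, against 19.1%) and the median was -0.04. For the interaction 11 of 13 values were below 0, with a median of -0.14 (all genes 0.00). For banding in wild type the median was 0.01 and 0 of 13 members had arrays that separated (9.93% of all genes). Averaged over genotypes or over surgery 0 of 13 separated as well (1.32% and 0.421% of all genes).

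**Figure D4:**
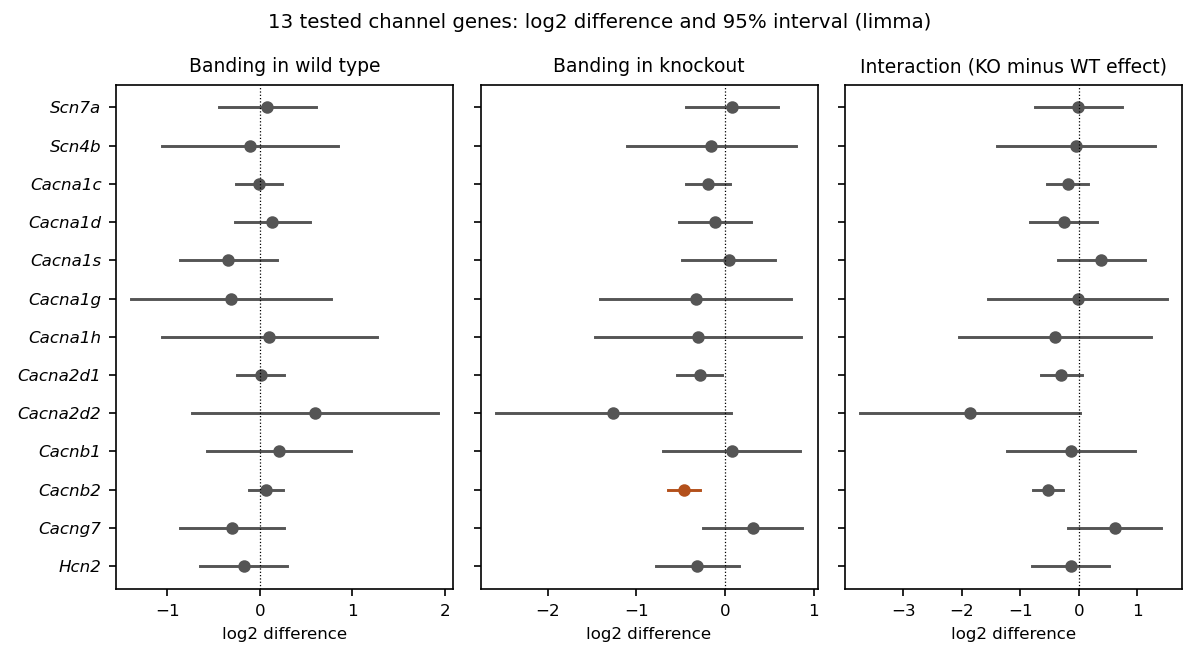
Log2 difference (horizontal axis, on the log2(intensity + 16) scale) with its 95% interval from limma for the 13 tested channel genes, for banding in wild type, banding in knockout and the interaction. Each panel has its own scale. Cacnb2 in knockout, at -0.46, is the only value past the adjusted threshold, and the widest interval is that of Cacna2d2.

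Partners and regulators of these channels formed a list of 43 genes, of which 37 were on the array and 28 tested. Banding in knockout lowered Fgf13, a fibroblast growth factor homologous factor that binds the tail of sodium channel pores, and raised Slmap, a membrane protein known for its role in sodium channel trafficking. Fgf13 read 1950, 1755 and 1972 in knockout sham and 1414, 1044 and 1139 in knockout banded arrays, without overlap, a difference of -0.66 (SE 0.13, adjusted p = 0.0216). In wild type the same probe set gave -0.10 (adjusted p = 0.983), and the interaction was -0.56 (adjusted p = 0.443). A second probe set gave -0.69 in knockout and 0.04 in wild type (adjusted p = 0.0896 and 0.993 over all single-gene probe sets).

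Slmap read 2223, 1988 and 2140 in knockout sham and 2634, 3102 and 3313 in knockout banded arrays, without overlap. Its difference was 0.50 in knockout (SE 0.11, adjusted p = 0.0315) and 0.39 averaged over genotypes (SE 0.08, adjusted p = 0.0356). Its other 2 probe sets, at mean intensities of 385 and 116, gave 0.72 and 0.01 in knockout, so they disagree. Over all single-gene probe sets their limma adjusted p were 0.0278 and 0.984, and that of the probe set used was 0.0686. In this list 1 of 28 rose and 1 of 28 fell in knockout hearts (2.04% and 1.73% of all genes), 1 of 28 rose on average over genotypes (0.934% of all genes), and 0 passed in the other 5 contrasts. The median in knockout was -0.03, against -0.02 over all genes. Both knockout calls were lost without any 1 of knockout sham 1, 2 or 3 or knockout banded 2 or 3. Over all leave-outs the adjusted p ran from 0.00200 to 0.113 for Fgf13 and from 0.00482 to 0.146 for Slmap, the lowest in each case without the array labelled knockout banded 1. Over all alternatives Fgf13 passed in 20 of 26 and Slmap in 18 of 26. The call of Slmap averaged over genotypes passed in 11 of 25, and among fits without a single array it passed without wild-type sham 1 or knockout banded 1.

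In the other contrasts, the partners with the smallest p did not pass. They were Ank3, an ankyrin that anchors sodium channels, for banding in wild type (-0.43, adjusted p = 0.921), and Gem, an RGK protein that inhibits L-type channels, for genotype in sham hearts (-0.86, adjusted p = 0.931) and averaged over surgery (-0.67, adjusted p = 0.330). Gem lay just inside the level for testing, through the wild-type groups (means of 56.7 and 70.5, against 24.0 and 43.3 in knockout), so its genotype values support nothing. Bin1, a T-tubule protein that delivers Cacna1c channels, had the smallest p for genotype in banded hearts (0.43, adjusted p = 0.199).

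The list of conduction and pacemaker regulators held 25 genes, of which 24 were on the array and 17 tested. Banding in knockout lowered 3 of them and raised 0 (1.73% and 2.04% of all genes), with a median of -0.29, against -0.02 over all genes. Ryr2, the sarcoplasmic reticulum channel that opens on calcium entry through L-type channels, read 4938, 5435 and 4938 in knockout sham and 3769, 3666 and 3146 in knockout banded arrays, without overlap, a difference of -0.53 (SE 0.12, adjusted p = 0.0320). Hopx, a homeodomain protein known from the conduction system, differed by -0.90 (SE 0.22, adjusted p = 0.0428) and read 4812 in the array labelled knockout banded 1 against 2421 and 2621 in the other 2. Tbx3, a repressor that keeps pacemaker tissue distinct from working muscle, differed by -0.55 (SE 0.13, adjusted p = 0.0432), at a mean intensity of 126. Its second probe set, at 104, gave -0.13 (adjusted p = 0.821 over all single-gene probe sets), and the other 3 had means of 2.25 to 23.6, under the level for testing. In that limma fit the second probe sets of Ryr2 and Hopx gave -0.75 and -1.07 (adjusted p = 0.0726 and 0.0831). The probe sets used for Ryr2, Hopx and Tbx3 did not pass there either (adjusted p = 0.0808, 0.0897 and 0.0859).

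These 3 calls moved with single arrays. Without the array labelled knockout banded 1 the differences were -0.58 for Ryr2, -1.21 for Hopx and -0.61 for Tbx3 (adjusted p = 0.0146, 0.000449 and 0.0207). Without any 1 of the other knockout sham or banded arrays, 0 of the 3 passed, with adjusted p up to 0.150, 0.193 and 0.179. Hopx also did not pass without wild-type sham 1 or any 1 of the wild-type banded arrays (adjusted p up to 0.0586), nor Tbx3 without wild-type sham 1 or 2 or wild-type banded 2 or 3 (up to 0.0574). Over all alternatives Ryr2 passed in 18 of 26, Hopx in 11 of 26 and Tbx3 in 10 of 25. In the other 6 contrasts 0 of 17 passed. The smallest p there belonged to Slc8a1, the sodium-calcium exchanger, for banding in wild type (0.84, adjusted p = 0.908) and genotype in sham hearts (0.65, adjusted p = 0.931), to Ryr2 for banding averaged over genotypes (-0.32, adjusted p = 0.0802) and genotype in banded hearts (-0.42, adjusted p = 0.167), and to Tbx3 for the interaction (-0.59, adjusted p = 0.443). The cardiomyocyte marker sums and Actb ratios given for Cacnb2 belong to the same arrays, and their part in these results was not tested.

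Markers of other cell types were set beside the members. The atrial marker mean varied widely within groups, from 6.72 to 10.2 in knockout sham alone, and it was compared with each of the 13 tested members over the 12 arrays. Cacna1h gave r = 0.65 (permutation p = 0.0233, adjusted 0.225) and rho = 0.64 (permutation p = 0.0281, adjusted 0.131). Its r was 0.52 without the 2 farthest arrays, knockout sham 1 and wild-type banded 3, and 0.66 for deviations from the group means. Cacna2d2 gave r = 0.61 (permutation p = 0.0346, adjusted 0.225) and rho = 0.61 (permutation p = 0.0404, adjusted 0.131). Its r was 0.61 without those arrays and 0.71 for deviations from the group means. By rank, Cacnb1 gave rho = -0.64 and Cacng7 rho = -0.62 (permutation p = 0.0299 and 0.0369, adjusted 0.131 for both). Of the 13 relations, 0 passed after adjustment, by Pearson's r or Spearman's rho. Cacnb2 gave r = -0.04 (permutation p = 0.898, adjusted 0.994) and rho = 0.05 (permutation p = 0.885, adjusted 0.957). Its r was 0.58 without knockout sham 1 and wild-type banded 3, but -0.28 for deviations from the group means.

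With the atrial mean as a covariate, the Cacna2d2 differences were -1.22 for banding in knockout (adjusted p = 0.160) and -1.59 for the interaction (adjusted p = 0.529). The 10 nerve and glia markers on the array summed to 781 to 827 in knockout sham and 668 to 705 in knockout banded arrays. These do not overlap. Of the 6 tested, 2 had differences above 0 and 4 below (median -0.29), and 1 passed (3.77% of all genes). That was Dbh, which makes noradrenaline and fell by 0.64 (adjusted p = 0.0473). Dbh was the brightest of the 10 in every knockout sham array, at 260, 285 and 337. In knockout banded arrays it read 218, 160 and 172. Uchl1 went the other way in knockout banded 2 and 3, at 150 and 190 against 70.3 to 73.9 in knockout sham. The part of these markers in the channel results was not tested.

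**Figure D5:**
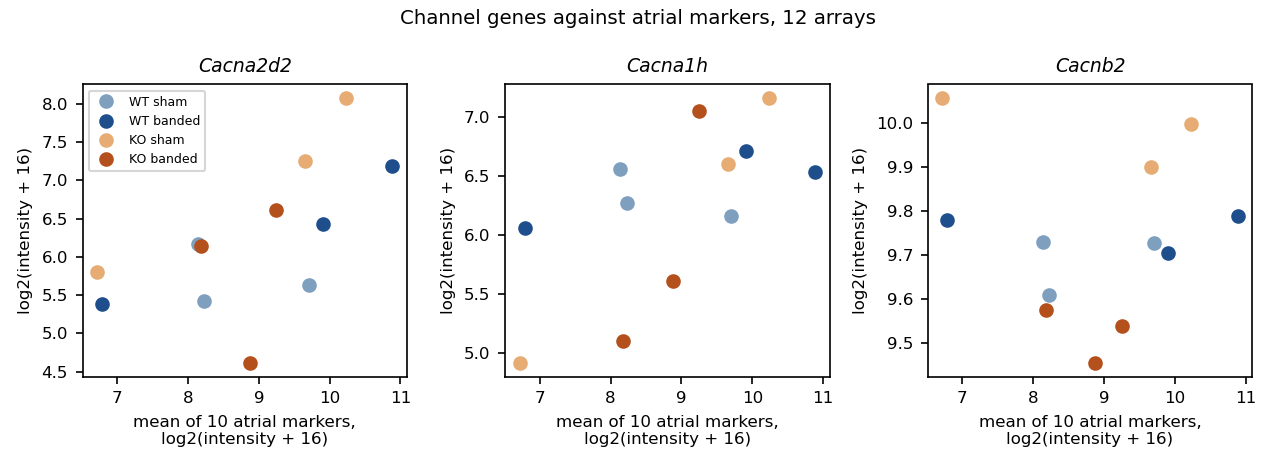
Level of Cacna2d2, Cacna1h and Cacnb2 (vertical axis) against the mean of 10 atrial markers (horizontal axis) in the 12 arrays, both on the log2(intensity + 16) scale and coloured by group. Over the 12 arrays r is 0.65 for Cacna1h, 0.61 for Cacna2d2 and -0.04 for Cacnb2, and without knockout sham 1 and wild-type banded 3 it is 0.52, 0.61 and 0.58. For deviations from the group means r is 0.66, 0.71 and -0.28 in the same order. None of the 3 passed after adjustment over 13 members.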

How the data were processed

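Total RNA from 12 hearts was measured on Affymetrix arrays. The values deposited by the authors are linear intensities, 1 for each of 45101 probe sets per array. The labels do not name the software or the scaling behind them. With 2% trimmed at each end, the mean of every array was 150, so no further scaling was applied. The platform annotation gave 34945 probe sets 1 gene and 932 several, and did not list 9160, leaving out 64 controls. Of the former, 34741 matched RefSeq.

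A log2(value + 16) transform was used, with the probe set of highest mean for each gene. One model with 4 group means was fitted in limma (version 3.58.1, R 4.3.3; eBayes with trend, 8 residual degrees of freedom) to 10916 genes, the upper 60% by mean (48.5 or more). There were 7 contrasts, two-sided, adjusted by Benjamini-Hochberg over all tested genes, with a threshold of 0.05. SE and 95% intervals come from the fit. The procedure was tested on simulated data. Depth does not apply to arrays, and their number limits the precision. Array pairs correlated at 0.961 or above.

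Some genes of these families are not reported here. Members and lists were chosen with earlier results of these data known. Named members are those that passed, the 4 with the smallest p in each contrast, and Scn4b, Scn7a, Cacna1c, Cacnb2, Cacna2d1, Cacna1g, Cacna1h and Hcn2. Listed genes are named where they passed, or with the smallest p of a contrast. Alternatives changed the filter, pseudocount, scaling, variance model, weights, probe set rule, block, covariate and samples. Leaving out single arrays for Apln was added after seeing the data. Lists of cell type markers (cardiomyocyte, atrial, nerve and glia, skeletal muscle, airway, fat, smooth muscle, fibroblast, endothelial) were read for counts and sums, and the atrial list also as a mean per array that was correlated with the members and used as a covariate. The labels do not say whether replicate numbers pair the arrays. A check of shared deviations showed no pairing but cannot exclude it.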

Additional observations from a re-analysis of the deposited data

How the results depend on the processing

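The number of channel genes passing for banding in knockout hearts, 1 in the reported fit, was 0 to 1 when single arrays were left out: 0 without knockout sham 1, 2 or 3 or knockout banded 2 or 3, where 87, 40, 5, 12 and 11 genes passed over the whole array. It was 0 when only both knockout groups were fitted, where 71 genes passed. These fits hold fewer arrays. It stayed 1, and the gene was Cacnb2, in the other 20 alternatives, among them other filters, pseudocounts of 1 and 64, quantile and median scaling, and array weights, with 214 to 1887 genes passing where 412 passed in the reported fit. The counts for the other 6 contrasts were 0 in every alternative run.

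Samples with the same replicate number did not deviate together (18 pairs, correlations of -0.28 to 0.23, median -0.02, 2 of 18 over 0.1). With the replicate number as a block, 1 channel gene passed for banding in knockout hearts, Cacnb2 at -0.46 (adjusted p = 0.0391), and 222 genes passed in all. Slmap, Ryr2 and Tbx3 did not pass with the block (adjusted p = 0.0585, 0.0588 and 0.0678).

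The interaction of Cacnb2 ran from -0.59 to -0.49 over its alternatives, with adjusted p of 0.0515 to 0.717, the lowest without the array labelled knockout banded 1. The Apln difference was -1.17 to -0.80 when single arrays were left out (exact permutation p = 0.00216 to 0.0238). Quantile and median scaling moved the median of all genes by under 0.1 in every contrast. With 3 arrays a group, the intervals of Cacna1g, Cacna1h and Cacna2d2 for banding in knockout hold a 2-fold fall as well as 0. For the 24 genes below the level for testing, the signal over background limits what can be seen.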

Other observations

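Gem and Rrad encode RGK proteins, small GTP-binding proteins that bind calcium channel beta subunits and inhibit L-type current. Gem read 46.3, 53.6 and 70.1 in wild-type sham, 43.7, 109 and 58.7 in wild-type banded, 21.3, 20.7 and 30.0 in knockout sham and 34.5, 51.2 and 44.2 in knockout banded arrays. Its knockout sham arrays were the lowest 3 of 12. Gem reached the level for testing only through the wild-type groups (means of 56.7 and 70.5, against 24.0 and 43.3 in knockout). Its low knockout values therefore support nothing. Rrad, singled out after its values were seen, read 858, 923 and 1171 in wild-type sham, 685, 1018 and 690 in wild-type banded, 799, 584 and 573 in knockout sham and 769, 1323 and 868 in knockout banded arrays. Rrad differed by -0.31 for banding in wild type (adjusted p = 0.958), by 0.56 in knockout (adjusted p = 0.157), and by 0.87 in the interaction (SE 0.31, adjusted p = 0.452), none of which passed in limma. The values of Cacnb2 in the same contrasts were 0.07, -0.46 and -0.53, and these contrasts share their arrays. A relation of Gem or Rrad to Cacnb2 was not tested.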
